A study of Mus musculus with 8 samples.

Results

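Purinergic receptors are cell surface proteins that sense nucleotides such as ATP, ADP, UTP and UDP outside the cell. The genes described here are 10 members of this class, 5 of the P2Y group (P2ry1, P2ry2, P2ry6, P2ry12 and P2ry14) and 5 of the P2X group (P2rx1, P2rx3, P2rx4, P2rx5 and P2rx7), chosen by gene symbol from the platform table. A named probe set was found for 9 of the 10, out of 19494 named genes measured, and P2ry14 was not analysed here. The set was drawn up with the difference of P2ry2 between the groups of these arrays already known. The differences of all 9 genes between those groups are therefore given as descriptions, with intervals as a measure of precision, and none is tested. P2rx4 gave a signal in the upper tail of the array's intron control rows, described below, at nearly equal levels in both groups. P2ry2 read 1.64-fold lower in IDE-KD cells, at a level within the control rows, and the groups of the other 7 measured genes overlapped at low signal.

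P2X receptors are cation channels that open when ATP binds. P2Y receptors are coupled to G proteins, and those of the Gq type raise calcium inside the cell through phospholipase C, while those of the Gi type lower cyclic AMP. In pancreatic islets, ATP is stored in secretory granules and released together with hormone, so that islet cells meet extracellular nucleotides whenever they secrete.

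The cells were alphaTC1.9, a cultured mouse line derived from a glucagon-producing alpha cell tumour, a single established line rather than primary alpha cells. The 2 groups were control alphaTC1.9 cells (4 arrays) and IDE-KD alphaTC1.9 cells (4 arrays), in which a small interfering RNA was used against insulin-degrading enzyme, a zinc-dependent protease of insulin and further short peptides. Both groups grew in medium with 16 mM glucose and had no other treatment, and the genotype labels give no other alteration. The sources used here do not give the kind of control RNA, if any, or the time from transfection to collection. Replicates are labelled biological without mention of separate cultures, so the spread between them may be technical in part. In such bulk RNA, fewer expressing cells and less RNA per cell cannot be told apart. Levels below are log2 expression values of RNA as the authors deposited them, where 1 unit is a 2-fold change.

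Array medians, taken over 22142 tested probe sets, ranged from 5.10 to 5.17, and correlations between arrays ran from 0.984 to 0.993 within groups and from 0.984 to 0.991 between them. The spread over those probe sets was narrower on IDE-KD replicates 1 and 3 (SD 2.16 and 2.13) than on the other arrays (2.20 to 2.25). Ide, the targeted gene, averaged 8.62 ± 0.10 on control arrays and 8.01 ± 0.11 on IDE-KD arrays (SD, n = 4 each), with no overlap of the groups. Its log2 difference was -0.62 (SE 0.12). An exact permutation test, two-sided, gave p = 0.0286, the smallest possible with 4 arrays against 4, and the gene had an adjusted p of 1.00 in limma over all rows. Gcg, the glucagon gene that defines alpha cells, read 12.06 in both groups, and 6 of 8 measured alpha cell markers lay above the 95th percentile of the intron control rows defined below. Of 44 measured markers of other cell types, 5 did so (G6pc2, Rbp4, Kdr, Snap25 and Tubb3, named after their values were seen), and 30 of the 44 read higher and 14 lower in IDE-KD cells (median log2 difference 0.07), against 52.1% higher and 47.9% lower over all rows. Limma called 0 of the 44 at an adjusted p under 0.05 (0% of all rows), with 1 higher and 2 lower at an unadjusted p under 0.05 (2.69% and 1.91% of all rows). The part of other cell types in the receptor differences was not tested. The leucocyte marker Ptprc, at 3.65 in control and 3.71 in IDE-KD cells, lay at percentiles 37.6 and 41.5 of the intron control rows. The first markers of the other lists (Ins2, Sst, Pf4, Pecam1, Col1a1, Rbfox3 and Cpa1) lay between percentile 31.6 (Rbfox3) and 82.6 (Col1a1) in control cells.

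The table holds 5222 rows whose identifiers mark them as negative controls. On this kind of array these are probe sets to introns of normalisation genes, here called intron control rows, and they served as a gauge of low signal. Their median was 4.22 on control arrays and 4.11 on IDE-KD arrays, and their 95th percentile 6.90 and 6.86. A further 23 background rows, built from probes grouped by base content, ran from 1.64 to 6.44. Probe sets differ in affinity, so levels of different receptors are not ranked against each other here, and each is set only against the control rows.

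P2rx4 and P2ry2 carry most of what follows. P2rx4 was the member in the upper tail of the intron control rows, and P2ry2 the member with the largest difference. Their promoter stretches are shown because the pair also differs in base content there. The sequences come from RefSeq, build GRCm38.p6, and end just before the outermost annotated start of the gene. Capitals mark CG dinucleotides. The P2ry2 stretch is chr7:101012054-101012303 on the minus strand and the P2rx4 stretch chr5:122707294-122707517 on the plus strand. The sources used here name no build for the probe sets.
P2ry2: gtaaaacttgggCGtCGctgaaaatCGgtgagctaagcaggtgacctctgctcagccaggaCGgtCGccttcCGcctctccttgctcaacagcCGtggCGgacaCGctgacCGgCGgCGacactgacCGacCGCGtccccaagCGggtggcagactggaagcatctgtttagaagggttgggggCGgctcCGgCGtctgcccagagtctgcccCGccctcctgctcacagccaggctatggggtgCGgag
P2rx4: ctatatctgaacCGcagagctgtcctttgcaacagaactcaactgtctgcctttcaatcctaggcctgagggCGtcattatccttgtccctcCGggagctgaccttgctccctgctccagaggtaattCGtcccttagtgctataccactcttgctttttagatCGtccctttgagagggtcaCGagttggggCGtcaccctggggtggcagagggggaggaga
The P2ry2 stretch of 250 bases held 21 CG dinucleotides at a G plus C content of 65.2%, and the P2rx4 stretch of 224 bases held 7 at 54.5%. The 250-base P2rx4 window, which is not the stretch printed, held 13 at 57.2%. The GC box letters GGGCGG, searched on both strands, occurred 2 times in the P2ry2 stretch and 0 times in the P2rx4 stretch, while 32.7% of all 32851 RefSeq promoter windows of 250 bases held at least 1. At least 21 CG dinucleotides were present in 16.3% of those windows, and at least 13 in 31.5%, with a median of 6.

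Promoter windows were found for 7 of the 10 genes. A second P2ry2 window, from a start further into the gene and overlapping the first, held 26 CG dinucleotides and 4 GC boxes at a G plus C content of 71.2%. P2ry1 had 20 CG dinucleotides in 250 bases, 2 GC boxes and a G plus C content of 70.8%. P2ry12 had 3, P2rx1 had 6, the 2 windows of P2rx7 had 4 and 6, and the 4 windows of P2ry14 had 1 to 4. The P2rx7 window with 6 held 2 GC boxes, and the other windows of these 4 genes held 0. P2rx3, P2rx5 and P2ry6 had no entry. The P2rx4 window of 250 bases, with 13 and 0 GC boxes, lay between P2ry1 and the remaining members.

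P2rx4, the ATP-gated channel that is also found on lysosomes, lay in the upper part of the intron control rows. Its values were 7.67, 7.57, 7.67 and 7.79 in control cells and 7.54, 7.72, 7.61 and 7.69 in IDE-KD cells. All 8 values lay within a narrow band and the groups overlapped. On each array P2rx4 exceeded between 97.1% and 97.9% of the intron control rows. Group levels were 7.68 ± 0.09 (control) and 7.64 ± 0.08 (IDE-KD; SD, n = 4 each), and the log2 difference was -0.04 (SE 0.11, 95% confidence interval -0.28 to 0.21). That interval lies inside a 1.5-fold change in either direction. Of the 9 measured members, P2rx4 alone was above the 95th percentile of the intron control rows in control cells. No member was above their 99th percentile of 8.78.

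**Figure D1:**
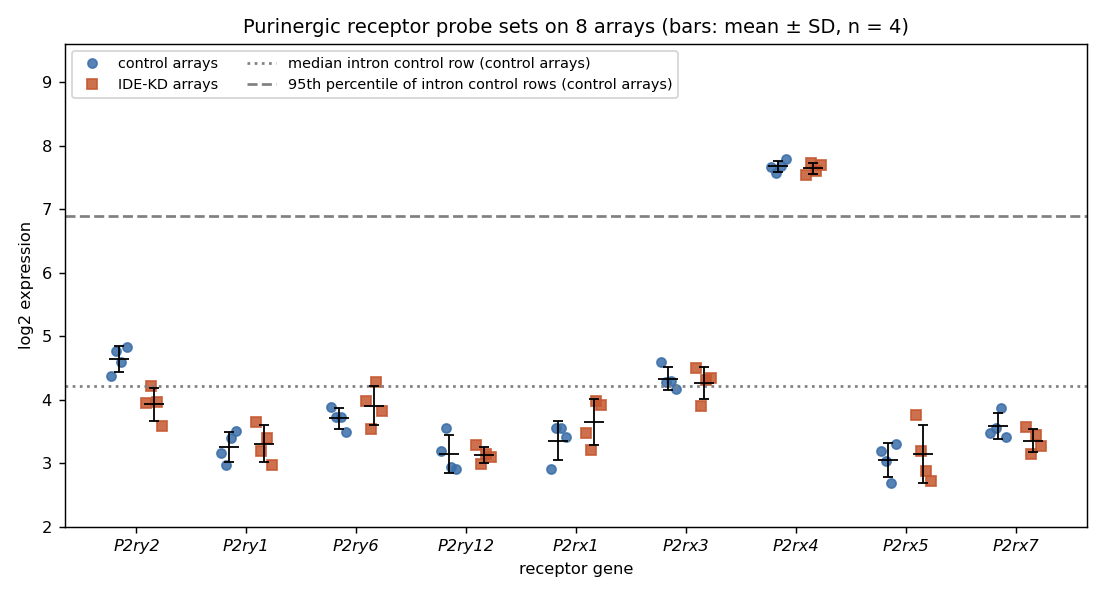
Log2 expression of the 9 receptor probe sets (x axis) on the 4 control arrays (blue circles) and the 4 IDE-KD arrays (orange squares), with the mean ± SD of each group in black and the median (dotted, 4.22) and 95th percentile (dashed, 6.90) of the intron control rows on control arrays. P2rx4 sits above the dashed line on all 8 arrays, and P2ry2 is the 1 receptor whose groups do not overlap.

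P2ry2 encodes the receptor for both ATP and UTP, which couples mainly to Gq. It read 4.38, 4.76, 4.59 and 4.84 on control arrays and 3.95, 4.22, 3.96 and 3.58 on IDE-KD arrays. Every IDE-KD value was below every control value, with 0.16 between the lowest control and the highest IDE-KD array. Group levels were 4.64 ± 0.20 (control) and 3.93 ± 0.26 (IDE-KD; SD, n = 4 each). The log2 difference was -0.72 (SE 0.15, 95% confidence interval -1.05 to -0.38), or 1.64-fold lower in IDE-KD cells. Leaving out 1 array at a time gave differences between -0.81 (without IDE-KD replicate 2) and -0.60 (without IDE-KD replicate 4, the lowest array). Since the groups did not overlap, no such fit could change the sign.

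P2ry2 was the 1 member of 9 with groups that did not overlap. Over all 22142 rows the groups did not overlap at 620, or 2.80%, with IDE-KD the lower group at 312 (1.41%) and the higher group at 308 (1.39%). Over all rows, the members among them, limma's count of calls was 0 (0%) at an adjusted p under 0.05. At an unadjusted p under 0.05 it called 1017 rows, or 4.59%. Since P2ry2 was chosen on this contrast, these shares are given beside its values and nothing is read from them.

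The signal of P2ry2 was low in both groups. On control arrays it exceeded 53.4%, 61.7%, 57.2% and 63.7% of the intron control rows, and on IDE-KD arrays 47.4%, 50.2%, 47.6% and 37.6%. These positions come from the same 8 values, set against other rows of the same array. The P2ry2 level in both groups fell inside the range of the background rows, whose highest stood at 6.44. So did the median tested probe set of each array (5.10 to 5.17). That range spans probes of differing base content, so it does not place P2ry2 at background.

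The control rows moved as well. The 1161 intron control rows within 0.5 log2 units of P2ry2's mean level had a median difference of -0.11 between IDE-KD and control. These rows varied more within groups (median SD 0.42) than P2ry2 did (0.23). The 2709 tested probe sets in the same range of level had a median difference of 0.06 and a median within-group SD of 0.26. Mean signal over all intron control rows ran from 4.28 to 4.38 on control arrays and from 4.20 to 4.28 on IDE-KD arrays. The part of this shift in the P2ry2 difference was not tested.

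**Figure D2:**
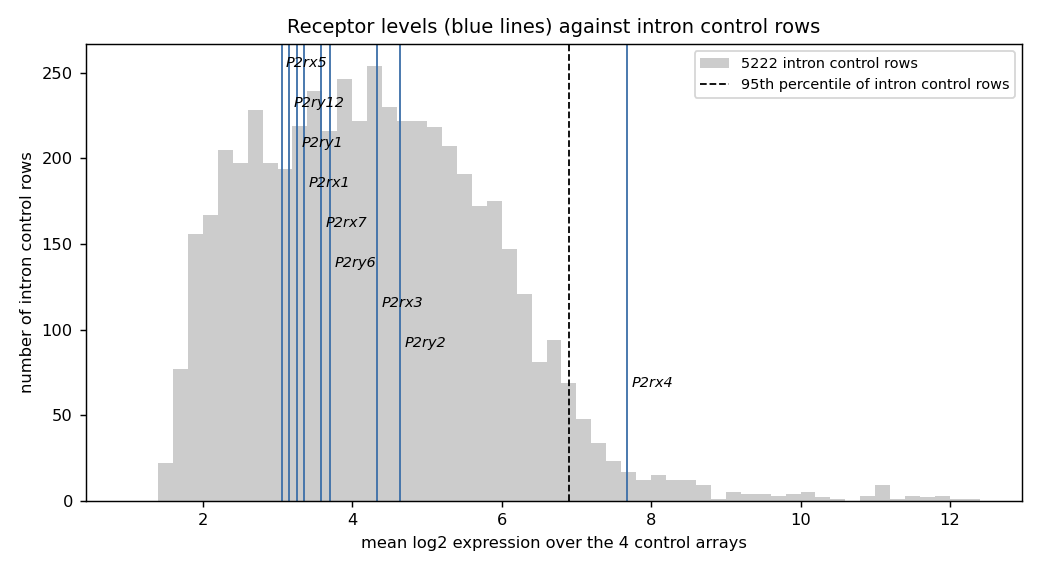
Histogram of the mean log2 level of the 5222 intron control rows over the 4 control arrays (grey, y axis in rows), with their 95th percentile (dashed) and the control level of each receptor (blue lines). P2rx4 at 7.68 lies right of the dashed line at 6.90, and the other 8 receptors lie in the body of the histogram.

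Among the remaining P2Y genes the groups overlapped throughout. P2ry1, the ADP receptor coupled to Gq, read 3.16, 2.98, 3.40 and 3.51 on control arrays and 3.66, 3.20, 3.40 and 2.97 on IDE-KD arrays. High and low values occurred in both groups, and its log2 difference was 0.04 (SE 0.17). P2ry6, the UDP receptor, read 3.89, 3.73, 3.73 and 3.48 on control and 3.98, 3.54, 4.28 and 3.82 on IDE-KD arrays. The IDE-KD values were the more scattered, and the log2 difference of 0.20 (SE 0.16) was 0.07 without IDE-KD replicate 3, the highest array, 0.12 without control replicate 4 and 0.32 without IDE-KD replicate 2. P2ry12, the Gi-coupled ADP receptor of platelets and microglia, read 3.19, 3.56, 2.95 and 2.91 on control and 3.29, 2.98, 3.15 and 3.10 on IDE-KD arrays. The IDE-KD arrays lay inside the range of the control arrays, with a log2 difference of -0.02 (SE 0.15). In control cells these 3 genes stood at percentiles 28.9 (P2ry1), 38.6 (P2ry6) and 26.7 (P2ry12) of the intron control rows.

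The P2X genes other than P2rx4 also had overlapping groups. P2rx1, a channel of platelets and smooth muscle that desensitises quickly, read 2.92, 3.55, 3.56 and 3.41 on control and 3.48, 3.21, 3.98 and 3.91 on IDE-KD arrays. IDE-KD replicates 3 and 4 were above all control arrays and the other IDE-KD arrays were among them. Its log2 difference of 0.29 (SE 0.19) was the highest of the members, and was 0.14 without control replicate 1 and 0.43 without IDE-KD replicate 2. P2rx3, the channel of sensory neurons, read 4.59, 4.28, 4.30 and 4.16 on control and 4.50, 3.91, 4.31 and 4.35 on IDE-KD arrays, a log2 difference of -0.07 (SE 0.15). The IDE-KD values of P2rx3 spanned more than the control values, with replicate 2 the lowest array.

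P2rx5 read 3.19, 3.03, 2.69 and 3.30 on control and 3.76, 3.20, 2.89 and 2.72 on IDE-KD arrays. Its log2 difference of 0.09 had the widest 95% confidence interval of the members, from -0.37 to 0.54. P2rx7, the channel of macrophages that opens at high ATP and feeds into inflammasome activation, read 3.48, 3.56, 3.88 and 3.42 on control and 3.57, 3.15, 3.44 and 3.27 on IDE-KD arrays. Its log2 difference was -0.23 (SE 0.14), and -0.13 without control replicate 3, the highest array. The levels of P2rx1, P2rx5 and P2rx7 in control cells were at percentiles 30.9, 24.8 and 36.0 of the intron control rows, and that of P2rx3 at 52.5.

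Across the 9 members, 4 read higher and 5 lower in IDE-KD cells, with a median log2 difference of -0.02. Over all tested rows, 52.1% read higher and 47.9% lower, with a median of 0.01. P2ry1 turned from higher to lower after a further quantile normalization (-0.01) and after cyclic loess (-0.0039), so the split depends on the scaling. Without P2ry2 the differences ran from -0.23 to 0.29. The 95% confidence interval lay within a 2-fold change in either direction for 8 of 9 members, all but P2ry2, and for 99.7% of all rows. It lay within a 1.5-fold change for 7 members, all but P2ry2 and P2rx1, and for 83.6% of all rows. For these dim probe sets a change in RNA may be compressed towards the background, so such limits hold for the array signal.

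**Figure D3:**
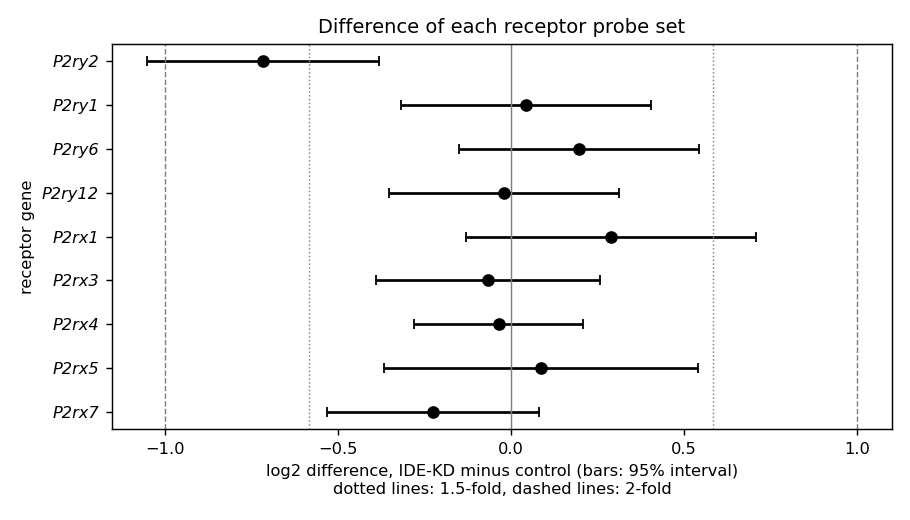
Log2 difference, IDE-KD minus control, of the 9 receptor probe sets (points) with 95% confidence intervals (bars) from limma over 8 arrays, with dotted lines at 1.5-fold and dashed lines at 2-fold. The P2ry2 point lies at -0.72 with an interval of -1.05 to -0.38, and the P2rx4 interval, -0.28 to 0.21, is the narrowest.

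**Figure D4:**
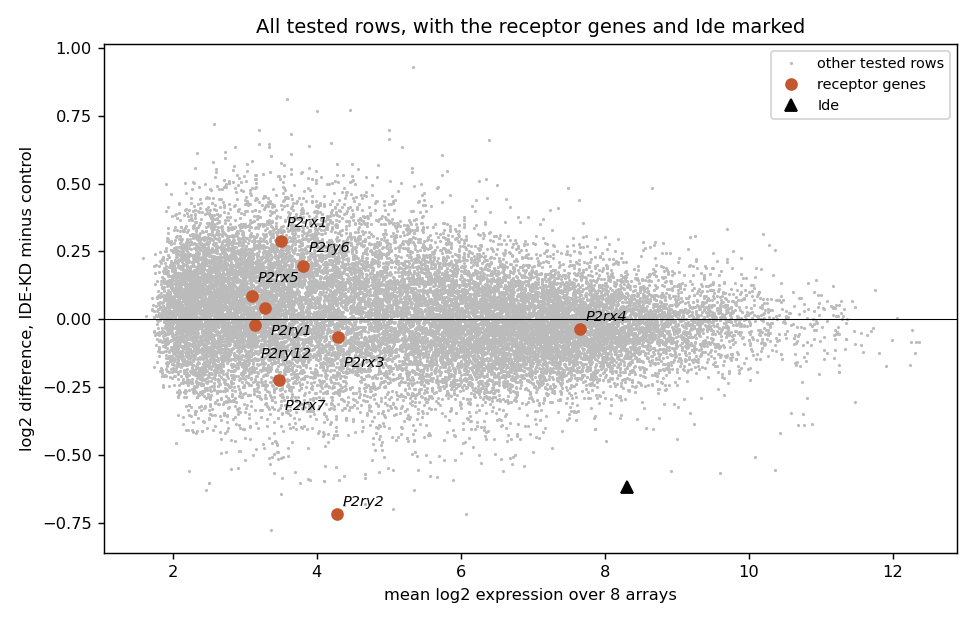
Log2 difference (y axis) against mean log2 level over 8 arrays (x axis) for all 22142 tested rows (grey), the 9 receptors (orange) and Ide (black triangle). P2ry2 at -0.72 is at the lower edge of the cloud at a low level, Ide at -0.62 below the cloud at a high level, and the other receptors lie inside it.

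Several receptor genes are neighbours on mouse chromosomes. P2ry2 and P2ry6 adjoin on chromosome 7 with 0 protein-coding genes between them in RefSeq, and their log2 differences were -0.72 and 0.20. P2rx7 and P2rx4 adjoin on chromosome 5, again with 0 between, and their control levels stood at percentiles 36.0 and 97.7 of the intron control rows. P2rx1 and P2rx5 on chromosome 11 have 4 protein-coding genes between them, and both were in the lower part of the intron control rows.

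The genes whose profile was most like that of P2ry2 over the 8 arrays, among 17036 named genes considered, were Mtus1 (r = 0.949), Trim25 (r = 0.948), Zbtb37 (r = 0.947), Plekha5 (r = 0.932) and Wdr11 (r = 0.929). Choosing by correlation with P2ry2 over both groups favours genes that read lower in IDE-KD cells. All 5 did so, with log2 differences from -0.50 (Trim25, SE 0.13) to -0.20 (Zbtb37, SE 0.11), and nothing is read from this. With group means subtracted the closest were Lsm5 (r = 0.950), Adap1 (r = 0.937), Prkra (r = 0.931), Tmem150b (r = 0.928) and Zfp12 (r = 0.917). No gene appeared in both lists of 5. These correlations describe 8 arrays, and 12 genes reached r = 0.9 in the first form and 11 in the second.

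The other genes of purinergic signalling gave 0 calls. Of 79 genes in 7 lists, 69 were measured, 33 higher and 36 lower, with a median log2 difference of -0.01. Limma called 0 of them at an adjusted p under 0.05, as it called 0% of all rows, and at an unadjusted p under 0.05 it had 3 higher and 1 lower, against 2.69% and 1.91% of all rows. The 4 adenosine receptor genes were not analysed here. A further 6 measured genes were listed by their P2Y or P2X symbol, whatever their ligand (P2ry4, P2ry10, P2ry10b, P2ry13, P2rx2 and P2rx6). All 6 had overlapping groups, with differences from -0.13 (P2ry10) to 0.16 (P2ry13) and -0.10 for P2ry10b. Single arrays moved these small differences: P2ry13 was at 0.03 without IDE-KD replicate 1 and 0.26 without IDE-KD replicate 4, P2ry10 at -0.04 without control replicate 2, -0.21 without control replicate 3 and -0.06 without IDE-KD replicate 2. P2ry10b ran from -0.19 without control replicate 2 to 0.06 without IDE-KD replicate 4, and was at -0.18 without IDE-KD replicate 1, -0.02 without control replicate 3 and -0.04 without control replicate 4. P2rx6, a subunit that joins other P2X subunits, stood at percentile 83.1 of the intron control rows in control cells.

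Genes of nucleotide release, the step that supplies the ligand, comprised 11 measured genes, 5 higher and 6 lower (median -0.01). Lrrc8a, a subunit of volume-regulated anion channels, had a log2 difference of -0.28 (SE 0.14). Gja1, the connexin 43 gene, read -0.22 (SE 0.12), and Calhm1, an ATP-permeable channel gene, -0.20 (SE 0.15). The Calhm1 difference was -0.12 without control replicate 2, -0.13 without IDE-KD replicate 2 and -0.31 without control replicate 3. Enzymes that break down nucleotides, listed with enzymes of adenosine use, comprised 13 measured genes, 8 higher and 5 lower (median 0.07). This list was not limited to enzymes that act outside the cell. Nt5e, the ectoenzyme that makes adenosine from AMP, read 2.88, 2.78, 2.26 and 3.09 on control and 3.17, 3.12, 3.84 and 3.07 on IDE-KD arrays. The groups overlapped by a single IDE-KD array, and the difference of 0.55 (SE 0.20, adjusted p = 1.00 in limma) was 0.37 without IDE-KD replicate 3. Entpd8, a nucleoside triphosphate diphosphohydrolase gene, differed by 0.45 (SE 0.20) and the ectophosphodiesterase gene Enpp3 by 0.26 (SE 0.14). All 3 lay below the median intron control row in both groups.

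**Figure D5:**
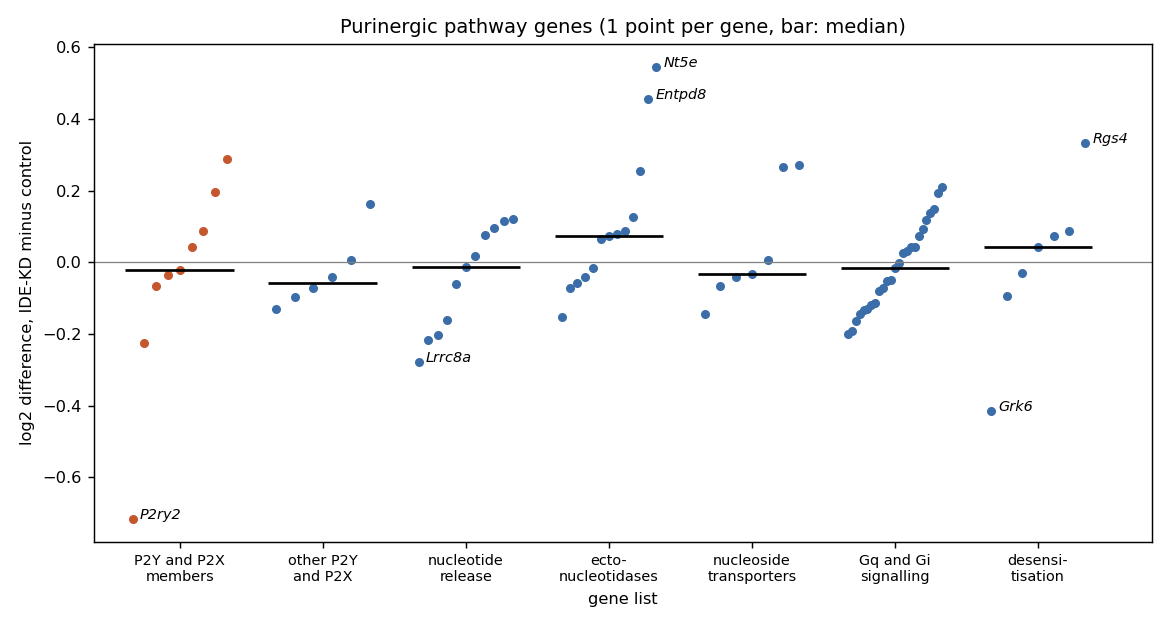
Log2 difference, IDE-KD minus control, of the 9 receptors (orange) and of 69 further purinergic pathway genes (blue) by gene list, with 1 point per gene and the list median as a black bar. P2ry2 at -0.72 is the lowest point, Nt5e at 0.55 the highest, and the list medians lie between -0.06 and 0.07.

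Nucleoside transporters comprised 7 measured genes, 3 higher and 4 lower (median -0.03), with Slc28a3 at 0.27 (SE 0.18), Slc29a3 at -0.14 (SE 0.11) and Slc28a2 at 0.27 (SE 0.23). The Slc28a2 difference was 0.0094 without IDE-KD replicate 4, 0.18 without control replicate 2 and 0.44 without IDE-KD replicate 1. That of Slc28a3 was 0.12 without IDE-KD replicate 1 and 0.41 without IDE-KD replicate 4. The Gq and Gi signalling list, which P2Y receptors use, had 11 higher and 14 lower of 25 measured (median -0.02). Gna14, a Gq family subunit gene, read 0.21 (SE 0.12), and the phospholipase C genes Plcb3 and Plcb4 -0.20 (SE 0.12) and -0.19 (SE 0.12), the latter -0.12 without IDE-KD replicate 2. Gnaq and Gna11, the broadly used Gq family subunits, differed by 0.03 and -0.11, with Gnaq at percentile 97.9 of the intron control rows in control cells and Gna11 above it (named after their values were seen).

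Of 7 measured genes of receptor desensitisation, 4 read higher and 3 lower (median 0.04), and the groups did not overlap at Rgs4 and Grk6. Rgs4, which speeds the shutdown of Gq and Gi signals, read 9.56, 9.39, 9.67 and 9.52 on control and 9.85, 9.90, 9.90 and 9.81 on IDE-KD arrays. All IDE-KD arrays were above all control arrays, and the log2 difference was 0.33 (SE 0.11, adjusted p = 1.00 in limma). Grk6, a kinase that phosphorylates activated receptors, read 6.21, 6.72, 6.48 and 6.82 on control and 6.11, 6.21, 6.03 and 6.20 on IDE-KD arrays. The groups were apart by 0.0025 only, and the log2 difference was -0.42 (SE 0.14, adjusted p = 1.00 in limma). Arrb1, an arrestin gene, differed by -0.09 (SE 0.12), and by -0.04 without control replicate 3 and -0.06 without IDE-KD replicate 2. Neither Rgs4 nor Grk6 passed the threshold. They were the only 2 of all 69 measured pathway genes with groups that did not overlap, against 2.80% of all rows.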

How the data were processed

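RNA from 4 control and 4 IDE-KD samples was hybridised to Clariom S arrays, 1 array per sample. The authors deposited log2 expression values. RMA, oligo and limma appear in the submitters' processing notes with no version or role, and RMA usually corrects background, equalises array distributions and summarises probes by median polish. Such scaling removes a global change in RNA and compresses low signals. The values were used as deposited. Of 29129 rows, 22142 transcript cluster rows were tested, and 6923 control and 64 unplaced rows were not. Of the tested rows, 19527 had 1 gene in the platform table, 0 had several and 2615 had none, and 0 symbols needed updating through RefSeq. A gene with several rows was represented by the row with the highest mean.

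IDE-KD minus control was fitted with limma 3.58.1 (lmFit, eBayes) in R 4.3.3 over all tested rows and 8 arrays without covariates, with Benjamini-Hochberg adjustment and a threshold of 0.05. With this number of arrays, 95% confidence intervals reached a median of 0.32 to either side. On simulated data for this comparison (22142 rows, 5 rounds), 45.6% of 1.5-fold and 97.6% of 2-fold changes were called. Each round mixed changes of 1.5-, 2-, 3- and 4-fold, with independent normal noise at the variances estimated by limma. Many large changes ease the adjusted threshold. These shares therefore do not tell which changes would be called on the real arrays, where 0 rows were. The members and gene lists were chosen with earlier results of these data known. The text names all members, the targeted gene, the 3 genes of each pathway list with the smallest p, the first marker of a cell type list where used, and the 5 genes most correlated with P2ry2, without predicted genes, clones, microRNAs or olfactory and vomeronasal receptors. Intron control rows were compared by percentile. Alternatives were a replicate block, trend and robust eBayes, array weights, 3 other scalings, a filter on dim rows, other percentiles and leaving out each array.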

Additional observations from a re-analysis of the deposited data

How the results depend on the processing

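Over the alternatives run, the P2ry2 difference of -0.72 ranged from -0.81 to -0.60 with 1 array left out and from -0.76 to -0.72 otherwise. The Ide difference ran from -0.66 to -0.58. P2ry2 was chosen on this contrast, and at both genes the groups did not overlap. No fit without 1 array could therefore change either sign. The counts of called rows and of called pathway genes were 0 under each alternative. At an unadjusted p under 0.05 between 581 (filter on dim rows) and 1452 rows (without IDE-KD replicate 2) were found. The filter left fewer rows to test, so its count is not comparable with those over all rows. Whether the replicate numbers pair the samples is not settled by these data, and the main fit used no pairing. Same-numbered arrays deviated together with correlations of 0.102, 0.130, 0.088 and 0.099. Differently numbered arrays also deviated together: control 1 with IDE-KD 3 (0.169), control 3 with IDE-KD 1 (0.158), control 2 with IDE-KD 4 (0.209) and control 4 with IDE-KD 2 (0.025), while odd against even numbers gave -0.225 to -0.048. The labels name no batch that matches this, and its part in the results was not tested. With the number as a replicate block, P2ry2 was again at -0.72 (SE 0.15) and 1253 rows had an unadjusted p under 0.05. The count of members above the control rows, 1 in the report, was 0 with the 99th percentile of the intron control rows, a limit higher by construction. It was also 0 with the 95th percentile of all array control rows. That set also holds 1324 positive control rows to exons, with a median of 7.16 on control arrays. P2ry1 changed sign in 2 of 8 leave-one-out fits, as did P2ry12, P2rx3 and P2rx5, and P2rx4 in 1. With array weights P2ry1 was at -0.0046 and P2ry12 at 0.02. The filter on dim rows removed the members other than P2ry2, P2rx3 and P2rx4. The IDE-KD arrays in place of the control arrays, an alternative chosen after seeing the data, gave 1 member above the 95th percentile.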
